A study of Mus musculus with 18 samples.

Results

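The genes that encode the proteins of the mitochondrial ribosome were taken as every gene whose symbol begins with Mrpl (large subunit) or Mrps (small subunit) followed by a number. By this rule 156 of 45037 probe sets carried a single such symbol, for 76 of 18193 genes. A probe set is a group of short array probes that together measure the transcripts of a gene, and 1 gene can have several. The rule uses names only and no measured value. Of the 156 probe sets, 147 (all 76 genes) reached an intensity of at least 8.5 on at least 1 array and were tested. This cutoff was set by rank and lies below the median intensity of every array (9.6 to 10.8), so some tested probe sets were near background. The 9 others were a probe set each of Mrpl15, Mrpl27, Mrpl34, Mrpl41, Mrpl42, Mrps15 and Mrps5 and 2 of Mrpl47, whose genes were all tested with another probe set.

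The RNA came from NIH-3T3, an established line of mouse embryo fibroblasts, and was measured on 18 Affymetrix arrays, 3 biological replicates for each of 6 treatments. Cells were given cycloheximide (CHX, an inhibitor of translation) or its solvent DMSO, and 15 min later mock treatment, IFNα or IFNγ at 100 U/ml was added for 60 min with CHX still present, which gives the groups mock, IFNα, IFNγ, CHX, IFNα+CHX and IFNγ+CHX. All groups were given 4-thiouridine (4sU) at 500 µM for the last 30 min, and only the RNA that had taken up 4sU was purified and hybridised, so that each value measures RNA made during that time. The design asks which transcriptional responses to IFN need new protein, and it also gives the effect of CHX itself.

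Mitochondria have their own ribosome, which translates the few proteins encoded by mitochondrial DNA, all of them parts of the respiratory chain or the ATP synthase. Its RNAs are transcribed in the organelle, but every one of its proteins is encoded in the nucleus, made by cytosolic ribosomes and imported. CHX blocks the cytosolic ribosome and not the mitochondrial one. Many of its proteins have a counterpart in bacteria, while others are found only in mitochondria. Promoters of these genes are known for binding sites of the factors NRF1, GABP (an ETS factor) and YY1.

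The fibroblast identity of the cells was visible on the arrays. Each of 8 fibroblast markers had a median intensity between 1094 and 18106 over the arrays, against at most 13.6 for 4 epithelial and at most 6.0 for 4 endothelial markers. Of 5 leukocyte markers, Ptprc, Itgam and Cd3e lay near background, and Cd14 (median 224.2) and Cd68 (129) did not. Cd68 rose with CHX by 1.33 on the log2 scale, and its part in the results below was not tested. Each array correlated with its closest neighbour at r of at most 0.9953, so that none was a copy of another.

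Promoter sequences of 6 members that fell or rose are shown, with motifs of factors known for such genes where they occur. They are RefSeq windows of 300 bases, from 250 before to 50 after an annotated start site, on the strand of the gene (build GRCm38.p6). RefSeq windows were matched by symbol for 67 of the 76 genes. Capitals mark letters that match a core motif on either strand: NRF1 (GCGCANGCG), GABP and other ETS factors (CCGGAAG), YY1 (AAGATGGCG), the E-box (CACGTG), the GC box of SP1 (GGGCGG) and the TATA box (TATAAA). Motifs may overlap, as a GC box and an ETS core do in Mrpl17. The 6 genes are the large subunit genes with the largest fall and the fall of lowest adjusted p with CHX (Mrpl43 and Mrpl12), the small subunit gene with the largest fall (Mrps2), a gene whose probe sets moved in opposite directions (Mrpl17) and 2 genes that rose (Mrps10 and Mrpl33).
Mrpl43, chr19:45006393-45006692 (minus strand): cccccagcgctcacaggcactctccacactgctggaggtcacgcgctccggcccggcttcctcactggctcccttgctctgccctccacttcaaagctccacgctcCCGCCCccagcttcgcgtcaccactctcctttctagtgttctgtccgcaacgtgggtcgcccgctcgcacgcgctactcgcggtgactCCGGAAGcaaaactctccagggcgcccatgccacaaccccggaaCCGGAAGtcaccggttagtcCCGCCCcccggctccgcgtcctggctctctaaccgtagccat
Mrpl12, chr11:120484387-120484686 (plus strand): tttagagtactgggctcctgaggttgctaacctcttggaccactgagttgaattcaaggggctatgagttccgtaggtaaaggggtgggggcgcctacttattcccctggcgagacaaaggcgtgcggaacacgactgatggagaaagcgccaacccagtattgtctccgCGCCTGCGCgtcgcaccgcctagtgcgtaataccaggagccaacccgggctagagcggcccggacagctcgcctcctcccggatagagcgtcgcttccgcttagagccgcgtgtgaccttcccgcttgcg
Mrps2, chr2:28467816-28468115 (plus strand): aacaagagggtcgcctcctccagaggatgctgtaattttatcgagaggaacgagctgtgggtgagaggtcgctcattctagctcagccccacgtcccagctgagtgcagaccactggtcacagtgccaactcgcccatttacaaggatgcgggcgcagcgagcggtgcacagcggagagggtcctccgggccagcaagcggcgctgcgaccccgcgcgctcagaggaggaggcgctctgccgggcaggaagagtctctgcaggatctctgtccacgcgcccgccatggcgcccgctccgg
Mrpl17, chr7:105811038-105811337 (minus strand): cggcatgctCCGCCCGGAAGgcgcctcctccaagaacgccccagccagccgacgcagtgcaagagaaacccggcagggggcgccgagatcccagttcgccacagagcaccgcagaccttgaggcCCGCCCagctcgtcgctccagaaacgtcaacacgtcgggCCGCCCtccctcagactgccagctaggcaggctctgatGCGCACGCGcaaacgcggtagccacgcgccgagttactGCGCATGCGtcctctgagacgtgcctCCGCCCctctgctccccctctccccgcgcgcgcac
Mrps10, chr17:47368947-47369246 (plus strand): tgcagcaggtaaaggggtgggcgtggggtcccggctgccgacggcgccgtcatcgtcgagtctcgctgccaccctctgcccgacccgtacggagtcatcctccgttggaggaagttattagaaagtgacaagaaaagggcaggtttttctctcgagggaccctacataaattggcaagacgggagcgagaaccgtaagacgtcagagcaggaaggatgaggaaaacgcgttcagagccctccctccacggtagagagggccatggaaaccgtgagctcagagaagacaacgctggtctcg
Mrpl33, chr5:31613701-31614000 (plus strand): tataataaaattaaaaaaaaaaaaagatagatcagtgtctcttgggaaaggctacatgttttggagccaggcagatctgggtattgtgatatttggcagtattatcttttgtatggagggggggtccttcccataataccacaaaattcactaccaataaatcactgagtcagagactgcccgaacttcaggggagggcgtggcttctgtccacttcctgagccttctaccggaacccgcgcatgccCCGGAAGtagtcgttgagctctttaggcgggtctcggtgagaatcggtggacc

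In Mrpl43 the ETS core began at positions -56 and -12 from the start site, and in Mrpl12 the single match was an NRF1 core at -80. The Mrpl17 window held NRF1 cores at -49 and -11, and that of Mrpl33 a single ETS core at -3. The windows of Mrps2 and Mrps10 held none of the 6 motifs, nor did those of Mrpl50 and Mrpl41, which also fell and are not printed. Among all 67 genes, an ETS core was found for 37.3% (9.93% of all 27025 genes with such a window), an NRF1 core for 22.4% (7.03% of all), a YY1 core for 11.9% (1.64%) and a GC box for 50.7% (38.2%). The E-box was found for 7.46% of the members and 8.09% of all genes, and the TATA box for 7.46% and 15.7%. Base composition was not matched between the members and all genes. A match of letters is a description of the window and not a binding site.

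CHX lowered the newly transcribed RNA of many members of both subunits. Averaged over the 3 treatments, 57 of the 147 probe sets (38.8%), from 42 genes, were lower with CHX at an adjusted p under 0.01 in limma, beside 17.9% of all 27773 probe sets tested. Only 4 member probe sets (2.72%) were higher, beside 12.7% of all. Most falls were of moderate size. A change of at least 2-fold was reached by 10 lower (6.8%) and 2 higher probe sets (1.36%), for which the shares of all probe sets were 5.31% and 3.89%. The median log2 change of the members was -0.29 (quartiles -0.65 and -0.05), with 114 of 147 values below 0, while the median of all probe sets was 0.03. By replicate number the median of the members was -0.31, -0.20 and -0.50 (SD 0.15, n = 3). In such bulk RNA, fewer cells making a transcript and less of it per cell cannot be told apart. The plot of the ranked changes shows that members of the 2 subunits were mixed along the whole range.

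**Figure D1:**
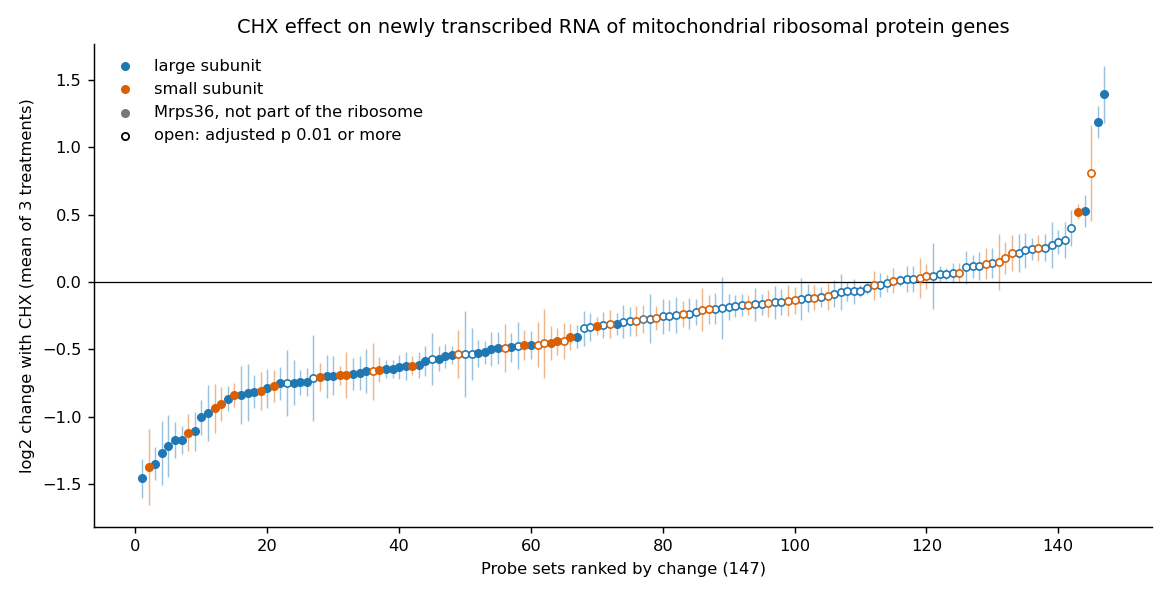
Change of each of 147 probe sets of mitochondrial ribosomal protein genes with CHX, ranked (x axis) against the log2 change averaged over mock, IFNα and IFNγ (y axis), with the SE of the limma fit as bars. Filled points had an adjusted p under 0.01 (57 lower, 4 higher), and colours give the subunit; values run from -1.46 to 1.39.

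More of the brighter members fell. Among all probe sets the share was low under a mean intensity of 32 and nearly the same in the 2 brighter ranges. Among 53 member probe sets with a mean intensity over 256, 27 (50.9%) were lower, beside 25.1% of all probe sets in that range. From 32 to 256 the count was 28 of 68 (41.2%, beside 24.9%), and under 32 it was 2 of 26 (7.69%, beside 6.49%). With each gene represented by the probe set with the highest mean, 35 of 76 genes (46.1%) were lower and 2 higher, beside 22.8% and 14.0% of all 12121 genes. The median over the 76 genes was -0.45, and that over all genes was 0.00241.

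The arrays with and without CHX did not overlap for some members. In 20 member probe sets of 17 genes (13.6%), all 9 arrays with CHX lay below all 9 without it, beside 7.64% of all probe sets. In 2 members (1.36%), the probe set 1442016_at of Mrpl48 and 1428153_at of Mrps10, all 9 lay above, beside 4.13% of all. Of the 57 lower probe sets, 45 were lower in each of the 9 differences between arrays of the same treatment and replicate number. The like share among all lower probe sets of the array is not given here.

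Genes of the large subunit are described first. Mrpl43, a protein found only in the mitochondrial ribosome, fell most. Its intensity was 710.4, 380.1 and 449.5 in mock, 762, 573 and 486 in IFNα and 601, 499.7 and 404 in IFNγ, against 264, 223 and 181 in CHX, 231, 212 and 204.5 in IFNα+CHX and 163, 183 and 112 in IFNγ+CHX. All 9 arrays with CHX were below all 9 without. The fall was by 1.46 ± 0.15 on the log2 scale (SE, adjusted p = 1.92e-06 in limma), or 2.75-fold.

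Mrpl12 forms part of the stalk that recruits translation factors, and is also known to bind the mitochondrial RNA polymerase. Its intensity lay at 1484, 949 and 1344 in mock, 1471, 1230.1 and 1347 in IFNα and 1354, 1035 and 1312 in IFNγ. With CHX it lay at 588, 708 and 559.9, with IFNα+CHX at 561, 607 and 507 and with IFNγ+CHX at 612, 535 and 428. The ranges did not overlap, and the log2 change was -1.17 ± 0.10 (SE, adjusted p = 5.12e-07 in limma).

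Mrpl50, another protein without a bacterial counterpart, had 2 probe sets and both fell. In the first, 1424164_at, intensities without CHX were 221, 169.7 and 192 in mock, 200.2, 209 and 252 in IFNα and 219, 195 and 256 in IFNγ. They were 99.3, 109 and 86.9 in CHX, 105, 124 and 57.3 in IFNα+CHX and 97.2, 79.0 and 102 in IFNγ+CHX, all below every array without CHX. The log2 change was -1.17 ± 0.13 (SE, adjusted p = 6.25e-06), and in the second, 1451266_at, it was -0.74 ± 0.09 (adjusted p = 1.23e-05), both in limma.

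Mrpl15, the counterpart of a bacterial large subunit protein, had 7 tested probe sets, the most of any member. Of these 6 were lower, with log2 changes from -1.35 (1430798_x_at) to -0.54 (1434971_x_at). The seventh, 1451623_at, stayed under an intensity of 12 on every array and had a log2 change of 0.01 ± 0.04. In 1430798_x_at the arrays with CHX ran from 30.9 to 58.5 and those without from 94.6 to 146, with no overlap. Probe sets ending in _x_at or _s_at can also match other transcripts, so their changes may not be of the named gene alone.

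The other large subunit members with the largest falls were Mrpl44, Mrpl49 and Mrpl41, all 3 without a bacterial counterpart. Mrpl44 fell by 1.27 ± 0.24 on the log2 scale in 1430990_s_at and by 0.97 ± 0.21 in 1426651_at (SE, limma), with adjusted p = 5.92e-04 and 1.56e-03, and its remaining 2 probe sets gave -0.54 and -0.57 and did not pass (adjusted p = 0.0362 and 0.027). Mrpl49 fell in both of its probe sets, by 1.11 and 0.75 on the log2 scale, and so did Mrpl41, by 1.00 and 0.66.

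In the small subunit, Mrps2 fell most. Its probe set 1420845_at had intensities of 97.7 to 235 without CHX (median of 9 arrays 178) and 29.4 to 121 with it (median 79.1), so that the ranges overlapped. The log2 change was -1.37 ± 0.28 (SE, adjusted p = 1.26e-03 in limma). Its second probe set, 1420846_at, fell by 0.81 ± 0.14 with no overlap (adjusted p = 3.93e-04). Mrps24, which corresponds to a bacterial protein at the entry of the messenger RNA, fell by 1.12 ± 0.14 in 1450865_s_at and by 0.69 ± 0.17 in 1438563_s_at (SE, limma).

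Mrps31, a small subunit protein found only in mitochondria, was chosen after its values were seen, as a small subunit member lower with CHX in each of the 3 treatments. Its intensity was 196, 162 and 170.0 in mock, 212, 176 and 165 in IFNα and 196, 174 and 212 in IFNγ. It was 113, 110.4 and 106 in CHX, 125, 116 and 83.8 in IFNα+CHX and 80.2, 98.1 and 102 in IFNγ+CHX. No array with CHX reached the lowest array without, and the log2 change was -0.84 ± 0.09 (SE, adjusted p = 3.15e-06 in limma).

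**Figure D2:**
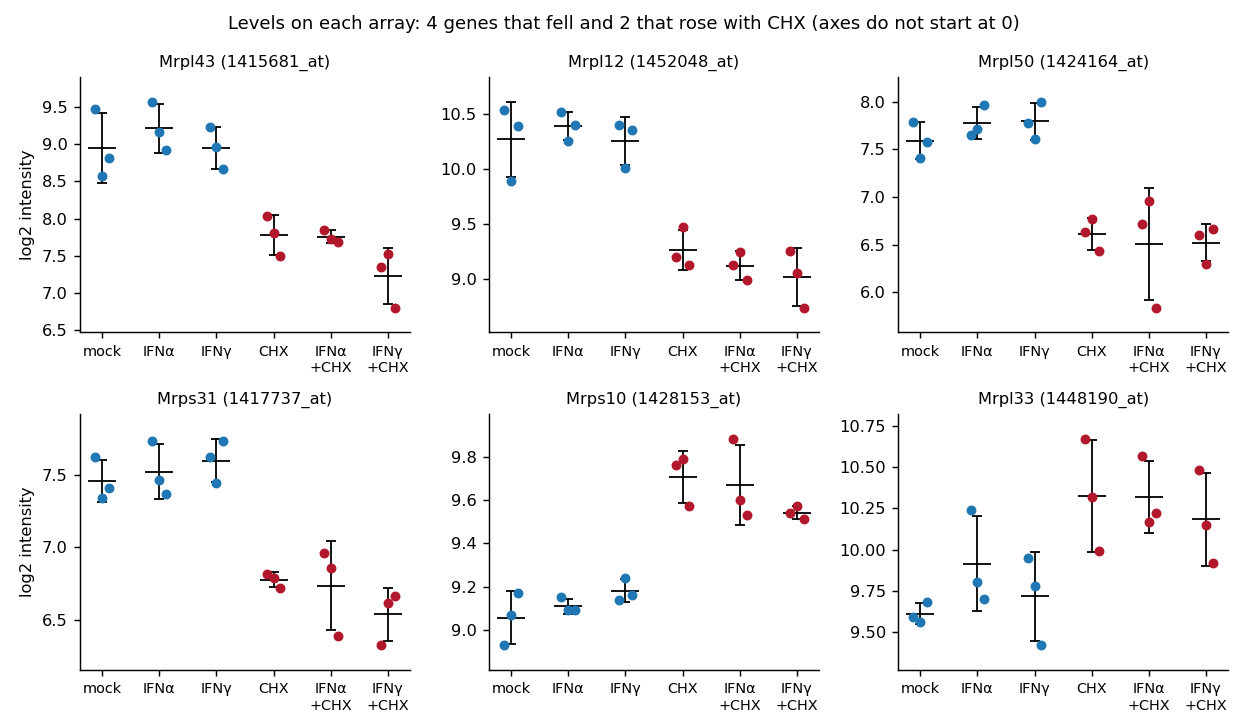
log2 intensity (y axis, not starting at 0) of 6 members on each of the 18 arrays, grouped by treatment (x axis), with points for arrays (blue without CHX, red with CHX) and the mean ± SD of 3 arrays in black. For Mrpl43, Mrpl12, Mrpl50 and Mrps31 every red point lies below every blue one, for Mrps10 every red point lies above, and for Mrpl33 1 array each of IFNα and IFNγ reached the range of the arrays with CHX.

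The 4 probe sets that rose belong to Mrps10, Mrpl33, Mrpl48 and Mrpl17. Mrps10, a small subunit protein with a bacterial counterpart, lay at 487, 537 and 576 in mock, 567, 545 and 547 in IFNα and 563, 607 and 571 in IFNγ. With CHX it lay at 869, 883 and 758, with IFNα+CHX at 944, 774 and 742 and with IFNγ+CHX at 745, 761 and 728. All arrays with CHX were above all arrays without, and the log2 change was 0.52 ± 0.06 (SE, adjusted p = 5.64e-06 in limma). The second probe set of Mrps10, 1458999_at, gave 0.14 ± 0.11 and did not pass.

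Mrpl33, a small protein of the large subunit, ranged from 683 to 1206 without CHX (median 834) and from 967 to 1627 with it (median 1192). The ranges overlapped, since IFNα replicate 1 (1206) and IFNγ replicate 1 (991) exceeded the lowest array with CHX. Its log2 change was 0.53 ± 0.12 (SE, adjusted p = 2.24e-03 in limma). These values are of 1448190_at. The second probe set, 1425843_at, lay between 6.3 and 11.3 over all arrays, gave 0.25 and did not pass.

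In the other 2 genes the rise was also called in 1 probe set only, and here another probe set of the gene lay below 0. In Mrpl48, the probe set 1442016_at lay between 26.1 and 42.0 without CHX and between 52.7 and 105 with it, a log2 change of 1.19 ± 0.12 (SE, adjusted p = 2e-06 in limma). The other Mrpl48 probe sets gave -0.15 ± 0.12 and 0.07 ± 0.07. In Mrpl17, the dim probe set 1458027_at rose from between 6.7 and 13.8 to between 13.7 and 34.5, by 1.39 ± 0.21 (adjusted p = 1e-04), and overlapped by 1 array on each side. The brighter Mrpl17 probe set 1450866_a_at fell by 0.81 ± 0.12 on the log2 scale (adjusted p = 8.31e-05), and the remaining one gave 0.12 ± 0.10. Mrpl17 was the only gene with probe sets called in both directions.

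Agreement between probe sets can be judged in the 38 genes that had more than 1. At least 1 probe set was lower in 21 of these genes and at least 2 were in 10. In 6 genes (Mrpl28, Mrpl41, Mrpl49, Mrpl50, Mrps2 and Mrps24) every tested probe set was lower. In 20 of the 38 all values were below 0, called or not. Over all 76 genes, 31 had no called probe set in either direction, among them Mrpl3, Mrpl4, Mrps9 and Mrps27. The like counts over all genes of the array are not given here, so these do not show agreement particular to the members.

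Values close to the threshold show how gradual the call is. Just inside it were Mrpl19 1450405_at (-0.82 ± 0.21, adjusted p = 0.00612), Mrpl13 1435966_x_at (-0.31 ± 0.08, 0.00786) and Mrps7 (-0.45 ± 0.12, 0.00868). Just outside were Mrpl35 1419362_at (-0.33 ± 0.10, adjusted p = 0.0159), Mrpl3 1440636_at (0.30 ± 0.09, 0.0161), Mrps5 (-0.44 ± 0.13, 0.0162) and Mrpl21 1452580_a_at (-0.32 ± 0.10, 0.0169), all log2 changes with SE from limma.

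By subunit, 40 of 99 large subunit probe sets (40.4%) and 17 of 47 small subunit probe sets (36.2%) were lower, with medians of -0.29 and -0.31. The count over genes was 22 of 49 (44.9%) and 13 of 26 (50%). Mrps30 and Mrps18a are counted with the large subunit, where their proteins sit, and Mrps36, which is not a part of the ribosome but of a dehydrogenase complex, gave -0.27 and was not called. Genes with a bacterial counterpart were lower in 22 of 44 cases (50%, median -0.44) and those found only in mitochondria in 13 of 31 (41.9%, median -0.46). No test was made of these differences.

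The 3 treatments that make up the average share no arrays, so each gives the CHX effect from arrays of its own. Arrays of the same replicate number in different treatments tended to deviate together, so the 3 estimates are not fully independent. Against mock, CHX lowered 7 members (4.76%, beside 7.02% of all probe sets) and raised 2 (1.36%, beside 3.92%). The lower members numbered 12 (8.16%, beside 9.0% of all) after each array was centred on its median and 4 (2.72%, beside 5.76%) after quantile normalisation. With IFNα it lowered 15 (10.2%, beside 6.31%) and raised 3 (2.04%, beside 5.54%). With IFNγ it lowered 36 (24.5%, beside 9.14%) and raised 1 (0.68%, beside 4.9%). The medians of the members were -0.19, -0.34 and -0.47 in this order, while those of all probe sets were 0.04, -0.01 and 0.03. These counts used the spread of all 18 arrays, and with the 6 arrays of each comparison alone they came to 1 lower and 1 higher, 6 and 1, and 3 and 0. A replicate block gave more lower members against mock, near the share of all probe sets, and more with IFNα, with counts given below. In the fit of all arrays without a block, the count against mock fell to 2 without mock replicate 1 or 3 and to 3 without any 1 of the CHX arrays. That with IFNα fell to 9 without IFNα replicate 1 and to 8 without IFNα+CHX replicate 3. Where no share of all probe sets is given, a count does not show whether members fell more often than other probe sets.

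Set side by side, the 3 comparisons gave many members the same sign. Of the 147 probe sets, 91 (61.9%) were below 0 in all 3 and 16 (10.9%) above 0 in all 3, beside 33.5% and 31.4% of all probe sets. Over the 147 probe sets (several of them from 1 gene, so not independent) the changes correlated at r = 0.89 (mock and IFNα), 0.847 (mock and IFNγ) and 0.878 (IFNα and IFNγ). The like correlations over all probe sets are not given here, so these values do not show agreement particular to the members. A total of 7 probe sets were called in each of the 3 comparisons. They were Mrpl12, Mrpl15 1430798_x_at, Mrpl18, Mrpl43, Mrpl50 1424164_at and Mrps31, all lower, and Mrpl48 1442016_at, which was higher. The 6 lower ones were 4.08% of the members, beside 4.23% of all probe sets, and the 1 higher was 0.68%, beside 2.25%. For Mrpl43 the log2 change was -1.17 against mock, -1.47 with IFNα and -1.73 with IFNγ (SE 0.25 each), and for Mrpl18 it was -0.76, -0.82 and -1.02 (SE 0.16 each).

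No member was called with IFN alone. Against mock, IFNα gave 0 called members in limma (0.569% of all probe sets were called), and 5 of 147 (3.4%) had an unadjusted p under 0.05, beside 5.84% of all. IFNγ also gave 0 called (2.12% of all), with 7 (4.76%) at an unadjusted p under 0.05, beside 10.8%. The median log2 change of the members was 0.09 with IFNα, with 111 values above 0, and 0.07 with IFNγ, with 109 above 0, both relative to the same mock arrays. The medians of all probe sets were 0.01 and -0.000995. Without IFNα replicate 3, 1 member was called with IFNα.

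With CHX present, IFNα again gave 0 called members (0.961% of all probe sets), with 2 (1.36%, beside 4.01% of all) at an unadjusted p under 0.05 in limma. IFNγ gave 1 called member (0.68%, beside 4.34% of all). That member was Mrps28, a small subunit protein. Its intensity was 132, 107 and 91.0 in CHX and 57.1, 77.3 and 48.3 in IFNγ+CHX. The IFNγ+CHX arrays were below the CHX arrays and also below every other array of the series, the lowest of which was 79.5 in IFNγ. The log2 change was -0.86 ± 0.19 (SE, adjusted p = 0.0095 in limma). This call was lost without CHX replicate 2, IFNγ+CHX replicate 1 or IFNγ+CHX replicate 3, which leave 0 called, and without IFNγ+CHX replicate 2 there were 2. There were also 0 called with log2(value + 16), with no filter, after quantile normalisation, with an intensity trend and with only the arrays of the comparison. At an unadjusted p under 0.05 there were 30 members (20.4%, beside 18.1% of all probe sets).

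Whether CHX changed the response to an IFN was tested as an interaction, which is the same as the difference between the CHX effect with and without that IFN. No member was called for IFNα (0.187% of all probe sets) or IFNγ (0.241%), with 2 (1.36%, beside 3.96% of all) and 19 (12.9%, beside 7.78%) at an unadjusted p under 0.05 in limma. The median of the members was -0.14 for IFNα and -0.29 for IFNγ, with 109 and 125 of 147 values below 0, and that of all probe sets was -0.02 in both. Both interactions use the same mock and CHX arrays.

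**Figure D3:**
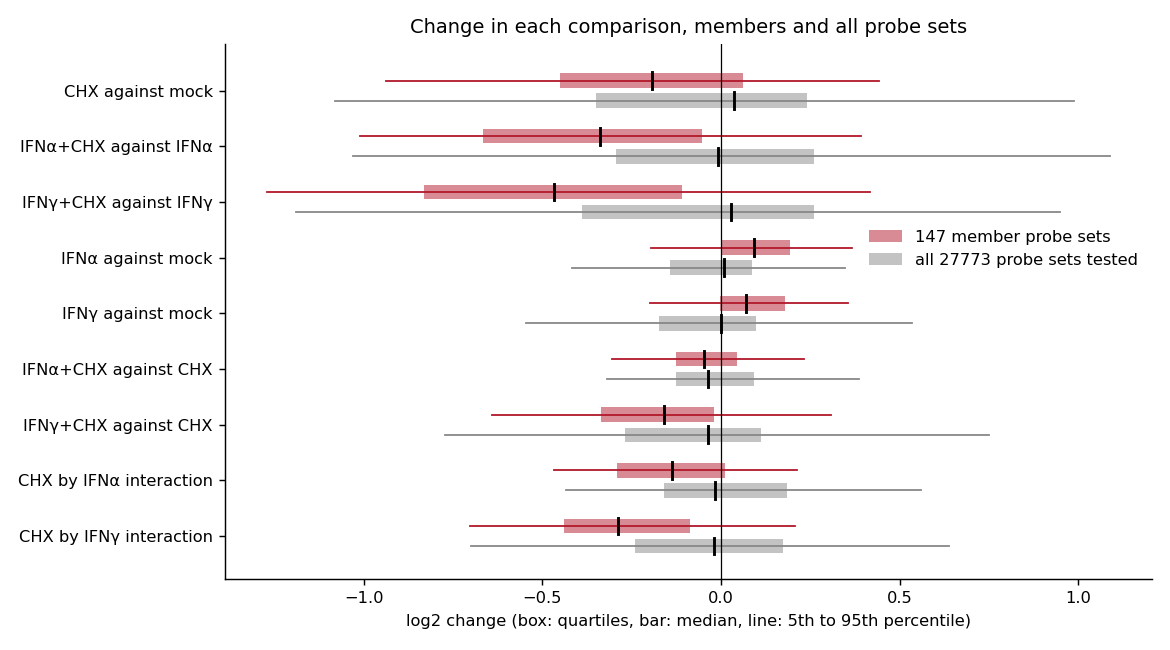
log2 change (x axis) in each of 9 comparisons (y axis) for the 147 member probe sets (red) and all 27773 probe sets tested (grey), with the box from the lower to the upper quartile, the median as a bar and the 5th to 95th percentile as a line. The member medians are -0.19, -0.34 and -0.47 in the 3 CHX comparisons at the top and lie between -0.16 and 0.09 in the 4 IFN comparisons.

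Array by array, the median log2 intensity over the 147 member probe sets was 7.5, 7.34 and 7.42 in mock, 7.54, 7.5 and 7.58 in IFNα and 7.56, 7.44 and 7.75 in IFNγ. It was 7.23, 7.36 and 7.20 in CHX, 7.16, 7.34 and 7.10 in IFNα+CHX and 7.06, 7.06 and 6.95 in IFNγ+CHX. The IFNγ+CHX arrays were the lowest of all, and of the other arrays with CHX, replicate 2 of CHX and of IFNα+CHX reached the lowest array without CHX. The upper quartile of all tested probe sets was 8.42 to 8.48 without CHX and 8.35 to 8.45 with it. In IFNγ+CHX it was 8.35, 8.39 and 8.36. The median of all tested probe sets was 6.16 to 6.31 without CHX. It was 5.98, 6.15 and 6.2 in CHX, 6.14, 6.17 and 6.21 in IFNα+CHX and 5.95, 6.08 and 6.03 in IFNγ+CHX. All probe sets together were thus also low on the IFNγ+CHX arrays, and the part of this in the members' values was not tested. After quantile normalisation, which gives all arrays the same distribution, 50 members were lower and 5 higher in the averaged effect. The share of all probe sets under that scaling is not given here.

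Genes that work with the mitochondrial ribosome were described by lists, 1 probe set per gene, in the averaged CHX effect, for which 22.8% of all genes were lower and 14.0% higher. Of 4 ribosomal proteins with other names, 2 fell: Gadd45gip1 by 0.97 and Ptcd3 by 0.89 on the log2 scale. Of 24 assembly factors, 5 were lower (20.8%) and 4 higher (16.7%), with a median of -0.00494. The largest falls were in Mettl17 (-1.51 ± 0.21), Mpv17l2 (-1.07 ± 0.12), Trub2 (-0.66 ± 0.17), a pseudouridine synthase, and Rbfa (-0.65 ± 0.14), a maturation factor of the small subunit. The 4 higher, named after their values were seen, were Mrm1 (0.65 ± 0.17), Tfb1m (0.53 ± 0.11), Fastkd2 (0.36 ± 0.08) and Nsun4 (0.36 ± 0.08). Of 10 translation factors, 4 were lower and 1 higher. The 4 were the elongation factors Tufm (-0.96 ± 0.14) and Tsfm (-0.92 ± 0.15), the formyltransferase of the initiator tRNA, Mtfmt (-0.84 ± 0.14), and the initiation factor Mtif3 (-0.63 ± 0.13).

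Of 16 mitochondrial aminoacyl-tRNA synthetases, which load tRNAs with amino acids, 2 were lower (Mars2, -1.48 ± 0.19, and Pars2, -0.84 ± 0.15) and 1 was higher (Wars2, 0.57 ± 0.15). Of 10 genes for the copying and transcription of mitochondrial DNA, 5 were lower and 1 higher. Among them the helicase Twnk fell by 1.35 ± 0.10 on the log2 scale, the polymerase Polg by 1.23 ± 0.14 and the RNA polymerase Polrmt by 0.97 ± 0.13, while Polg2, the accessory subunit of the DNA polymerase, rose by 1.45 ± 0.15 (SE, limma).

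Of 13 known regulators of nuclear genes for mitochondria, 6 were lower and 1 higher, Gabpb1, a subunit of GABP (1.05 ± 0.14, adjusted p = 3.177e-05 in limma), named after its value was seen. The log2 changes were -2.81 ± 0.17 for the coactivator Ppargc1b, -1.64 ± 0.32 for the Myc partner Max, -1.498 ± 0.16 for the nuclear receptor Esrra and -1.21 ± 0.24 for Mycn (SE, limma). Nrf1 (0.30 ± 0.16), Gabpa, the DNA-binding subunit of GABP (0.16 ± 0.11), and Yy1 (-0.21 ± 0.08) were not called. Of 45 cytosolic ribosomal protein genes, 24 (53.3%) were lower and 0 higher in limma, with a median of -0.28, beside 35 of 76 (46.1%) and a median of -0.45 for the mitochondrial ones. The largest falls were in Rpl12 (-1.61 ± 0.16), Rpl14 (-0.83 ± 0.13), Rps25 (-0.74 ± 0.13) and Rps27 (-0.70 ± 0.14).

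**Figure D4:**
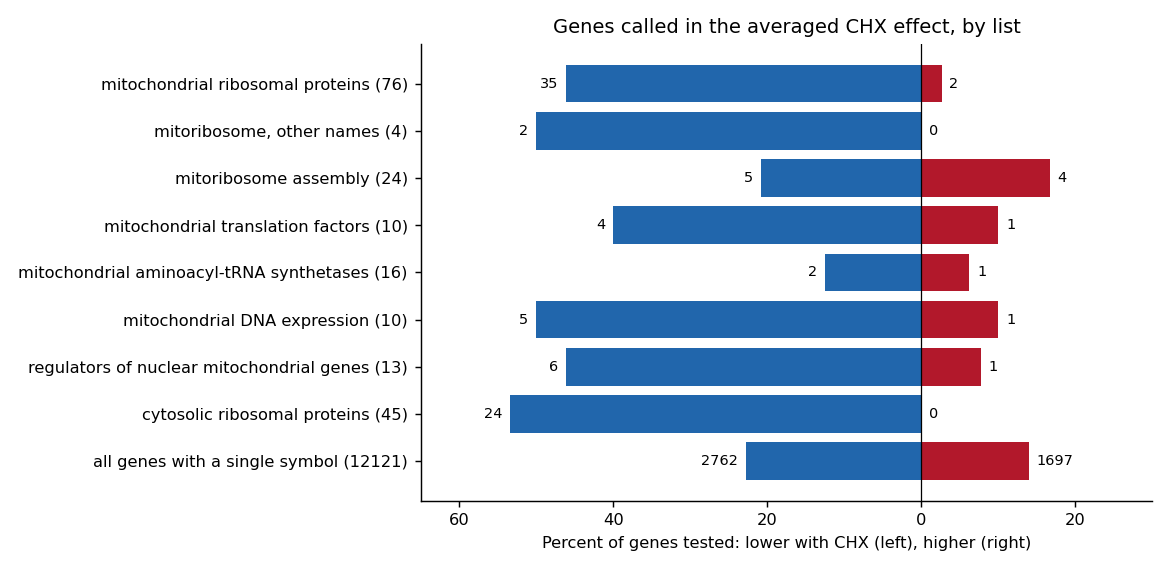
Percent of the tested genes of each list (y axis, number tested in brackets) that were lower (blue, left) or higher (red, right) with CHX in the averaged effect at an adjusted p under 0.01 in limma, with the counts printed at the bars. Of the mitochondrial ribosomal protein genes 35 were lower and 2 higher, of the cytosolic ones 24 and 0, and of all 12121 genes 2762 and 1697.

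Many members lie head to head with another gene, so that both are transcribed away from a common stretch of DNA. By the RefSeq start sites, 25 of the 67 genes had a neighbour on the other strand within 1000 bases. Counting the pair of members Mrpl46 and Mrps11 once, 21 pairs had both genes tested. Both genes were lower in 7 pairs (33.3%), only the member in 4, and only the neighbour in 2, and 1 neighbour was higher. Among the 579 other pairs of tested genes that start head to head within this distance, both were lower in 59 (10.2%). Only 1 gene of the pair was lower in 28.6% of the 21 pairs and in 34.5% of the 579. Each of the 21 pairs was chosen to hold a member, and in 11 the member was lower. The share with both lower therefore partly restates the fall of the members. The changes had opposite signs, called or not, in 6 of the 21 pairs (28.6%) and in 39.9% of the 579. The starts of Mrpl43 and Twnk are 116 bases apart, so that the Mrpl43 window printed above runs past the start of Twnk, and both genes fell, by 1.46 and 1.35 on the log2 scale. Mrpl46 and Mrps11, whose starts are 42 bases apart, fell by 0.53 ± 0.10 and 0.77 ± 0.12 (SE, limma). Mrpl50 fell by 0.74 beside Zfp189 by 1.36, and Mrpl49 by 1.11 beside Fau, the gene of a cytosolic ribosomal protein, by 0.47. The 1 neighbour that rose was the condensin subunit Ncapd2, by 0.42 ± 0.10, beside Mrpl51, not called at -0.20 ± 0.11.

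**Figure D5:**
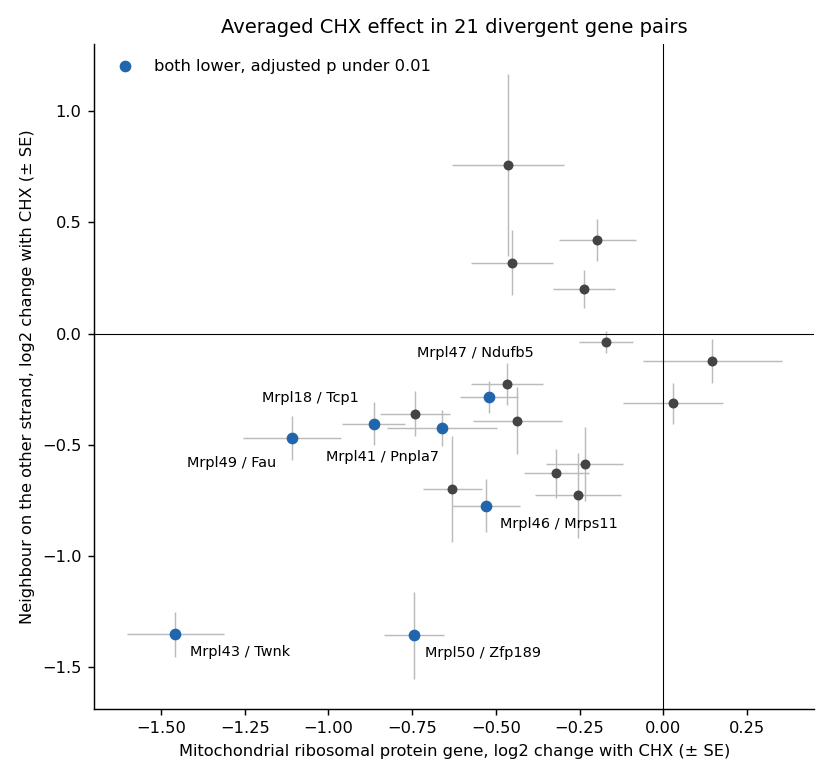
Averaged log2 change with CHX of a mitochondrial ribosomal protein gene (x axis) and of its head-to-head neighbour (y axis) in 21 pairs with start sites at most 1000 bases apart, with SE as bars. Blue points are the 7 pairs in which both genes were lower at an adjusted p under 0.01 in limma, from Mrpl43 and Twnk at the lower left to Mrpl47 and Ndufb5.

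The motifs were found in members that fell and in those that did not. An ETS core stood in the window of 10 of 36 genes with a lower and no higher probe set and of 15 of 31 others. The others include Mrpl17, which had a probe set called in each direction. For the NRF1 core the counts were 6 of 36 and 9 of 31, for the YY1 core 4 and 4, for the GC box 17 and 17, for the E-box 2 and 3 and for the TATA box 3 and 2.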

How the data were processed

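The authors purified 4sU-labelled RNA of NIH-3T3 cells, hybridised it to Affymetrix MG 430 2.0 arrays and deposited an intensity, on a linear scale, for every probe set on each array. The study's methods name gc-RMA in R for this, and the submitters' processing notes name Affymetrix Expression Console without a version. No probe-level file was processed here, and arrays have no depth: signal over background and 3 arrays per treatment limit the precision.

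Gene symbols came from the platform annotation in GEO, and 4 probe sets that list a member together with another symbol were left out of the members. Of 45101 probe sets, 64 controls were dropped. The study kept probe sets called present, and since no such calls were used here, the 27759 with the highest maximum were taken (27773 with ties, maximum at least 8.5). The log2 intensity, with no constant added, was fitted in limma 3.58.1 (R 4.3.3) with 1 coefficient per treatment over all 18 arrays and no block (12 residual and 2.05 prior degrees of freedom). P-values were adjusted by Benjamini-Hochberg over all tested probe sets in each comparison, and a call needs an adjusted p under 0.01. The fit was tested on simulated data.

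Named with values were the called members that moved the same way in all 9 differences of equal treatment and replicate number (10 largest falls, all rises), members called with an IFN, genes called in both directions, members next to the threshold, and up to 4 called genes of each list. Members and lists were chosen with earlier results of these data known. Replicate numbers come from the labels. They were used to form these differences and not as a block. Alternatives covered the added constant, filter, scaling, arrays in the fit, replicate block, 1 probe set per gene, prior trend and leaving out each array. Figures were drawn with matplotlib 3.10.9.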

Additional observations from a re-analysis of the deposited data

How the results depend on the processing

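The 14 probe sets named for the largest changes were taken from those called and moving the same way in all 9 differences. Their falls and rises kept their direction and their call without any single array and under the 8 other alternatives run for them. These alternatives leave out 1 probe set per gene (9 of the 14 are absent there) and the fit of only the arrays of a comparison. Keeping the direction without 1 array was largely fixed by the way the 14 were chosen. In the averaged CHX effect the lower members numbered 49 to 57 and the higher ones 4 to 6 when an array was left out, with a median of -0.33 to -0.27, and the other scales, filters, scalings and prior left 50 to 61 lower and 4 or 5 higher. With 1 probe set per gene there were fewer features, and 35 were lower and 2 higher in the averaged effect (median -0.45). Against mock 5 genes were lower (6.58%, beside 9.92% of all genes) and 1 higher (1.32%, beside 4.57%). With IFNα 11 were lower (14.5%, beside 8.42%) and 1 higher (1.32%, beside 6.88%). With IFNγ 23 were lower (30.3%, beside 12.7%) and 0 higher (beside 6.12%). Where no share of all probe sets or genes stands beside a count here, the count shows only how far the call moved. Counts in single treatments moved more. With only the arrays of the comparison, and so fewer residual degrees of freedom, they were 1 lower and 1 higher against mock, 6 and 1 with IFNα and 3 and 0 with IFNγ, and 0 for IFNγ+CHX against CHX. Lower members against mock numbered 4 after quantile normalisation and 12 after median centring (8.16%, beside 9.0% of all probe sets). Higher members with IFNγ numbered 2 with log2(value + 16) and 2 in the probe sets of higher mean. The call for IFNγ+CHX against CHX was 0 with log2(value + 16), with no filter, after quantile normalisation and with an intensity trend, and the cause was not tested. A replicate block gave 67 lower and 6 higher in the averaged effect, 16 lower against mock (10.9%, beside 10.4% of all), 25 lower with IFNα (17%, beside 9.25%) and 2 higher with IFNγ, and moved no other count by over 1.5 times. The labels give the replicates only a number. Deviations from the treatment means correlated at a median r of 0.474 over 45 pairs of arrays with the same number (over 0.1 in 38, lowest -0.401). Over 90 pairs with different numbers the median was -0.306 (over 0.1 in 25). Of 18 arrays, 14 correlated best with an array of their own number. Arrays with the same number thus tended to deviate together, and the main fit, which has no block, does not take this into account. What such arrays share was not tested.

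Leaving out 1 array gave 2 to 7 lower members against mock, 8 to 12 with IFNα and 25 to 37 with IFNγ, 0 to 1 higher with IFNγ (0 without IFNγ replicate 3 or IFNγ+CHX replicate 2), 0 to 1 called for IFNα against mock and 0 to 2 for IFNγ+CHX against CHX. Dim probe sets carry little information: 2 of 26 members under an intensity of 32 were called lower.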

Other observations

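Of the 4 probe sets annotated with a member gene and a second symbol, 3 passed the cutoff and were tested, and none can be assigned to 1 gene. The averaged CHX effect was -0.78 on the log2 scale for the probe set of Mrpl53 and Ccdc142 (adjusted p = 2.711e-05 in limma), -0.46 for that of Mrpl30 and Gm6238 (0.0003282) and -0.30 for that of Mrps34 and Nme3 (0.06845).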
